A study of Mus musculus with 6 samples.

Results

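Expression of 40 genes of blood vessels, lymphatic vessels and pericytes was examined in tumor-bearing colon tissue of mice treated with RG@M-γ-CD or with PBS. The genes were taken by name: every gene probe of the array whose gene name was one of the 40 symbols was kept, which gave 57 probes among 56605 gene probes, and the 40 genes are among 37325 genes on the array. They comprise 33 blood vessel genes, 4 lymphatic genes and 3 pericyte genes. RG@M-γ-CD is a channel-type nanoparticle in which regorafenib (RG), an oral inhibitor of several kinases including the receptors of VEGF, is held by mannose-modified γ-cyclodextrin, and PBS is the vehicle.

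The samples came from male C57BL/6 mice, 6 to 8 weeks of age when obtained and older by the weeks of tumor growth and treatment when sampled, with colitis-associated tumors made by 1 injection of the carcinogen azoxymethane (AOM, 10 μg/g) and 2% dextran sulfate sodium (DSS) in the drinking water for 5 days. Tumors and colitis were therefore induced in the same way in the controls. The study reports fewer and smaller tumors and milder colitis under RG@M-γ-CD, so the groups were not matched for either at sampling. It also reports fewer vessels by CD34 staining of tumor sections under RG@M-γ-CD. That is protein in tumor sections, whereas the values here are RNA of colon tissue with tumors. Per the methods, treated mice (3 samples) received RG@M-γ-CD by mouth at 30 μg/g, equal to 10 μg/g of RG, for 21 days, control mice (3 samples) received PBS, and tissue was taken after 14 further days of observation, so the values describe tissue collected after dosing had ended. Each of the 6 samples, 1 per mouse by the study's methods, was measured on 1 one-color Agilent array. No sample of healthy colon, free RG or the empty carrier was analysed here.

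Endothelial cells line all vessels, are joined by VE-cadherin, claudin-5 and related junction proteins, and respond to VEGF by sprouting. During inflammation they display selectins and adhesion molecules that capture leukocytes. Lymphatic endothelium is set up by the transcription factor PROX1 and drains fluid and cells from the tissue, and pericytes wrap capillaries from outside and are kept there by PDGF signaling. In tissue homogenates each of these cell types adds a small part of the RNA, and fewer cells of a type cannot be told apart from less RNA per cell.

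The grouping and the slide touch every comparison. A published heat map clustered on these same arrays is read here as setting RG@M-γ-CD replicate 1 beside PBS replicates 2 and 3, and PBS replicate 1 beside RG@M-γ-CD replicates 2 and 3. The labels of the samples were kept as given, and values are also stated without RG@M-γ-CD replicate 1, alone or together with PBS replicate 1. All arrays lay on 1 slide, with the RG@M-γ-CD arrays and PBS replicate 1 in its first row and PBS replicates 2 and 3 in its second row. Between 28103 and 31219 probes per array (49.65% to 55.15%) were well above background, and no gene spot was saturated. The number of arrays limits the precision. The epithelial markers Epcam, Cdh17, Krt20 and Vil1 were well above background on all arrays, and the summed level of the 9 epithelial genes ran from 983 to 1225 in the RG@M-γ-CD group and from 938 to 1356 in the PBS group.

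Values below are log2 signals set against the 75th percentile of all gene probes on that array, so 0 marks that percentile, and they are comparable between arrays for 1 gene but not between genes. A difference is the RG@M-γ-CD mean minus the PBS mean, on the log2 scale, with its standard error (SE) from limma. A probe entered the test if the scanner software marked it well above background throughout 1 group or both, and the brightest such probe stood for its gene. Of the 40 genes, 37 passed, and each of these was well above background on all 6 arrays. The other 3 were the vessel genes Erg, Sele and Madcam1, described with their own groups.

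No vascular gene differed between the groups at an adjusted p below 0.05 in limma (0 of 37), and neither did any gene on the array (0% of 19090). At an unadjusted p below 0.05, 1 of the 37 genes was higher and none lower, against 2.19% of all genes tested. The arrays of the groups did not overlap in 1 of 37 genes, against 4.57% of all genes. That gene was in each case Sox7. With 3 arrays against 3, the smallest two-sided p that an exact permutation test of a single gene allows is 0.1.

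The differences leaned to the treated side without passing the test. Of the 37 genes, 31 had a higher mean in the RG@M-γ-CD group and 6 a lower one, with a median difference of 0.23, whereas 9003 of all 19090 genes were higher and the median over all genes was -0.012. The genes share the same 6 arrays and are not independent of each other. The lean rested on 1 array at each end: without RG@M-γ-CD replicate 2, 25 of 37 genes were higher and the median was 0.048, beside 0.049 over all genes, and without PBS replicate 3, 24 of 38 were higher with a median of 0.048, beside 0.0069 over all genes.

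**Figure D1:**
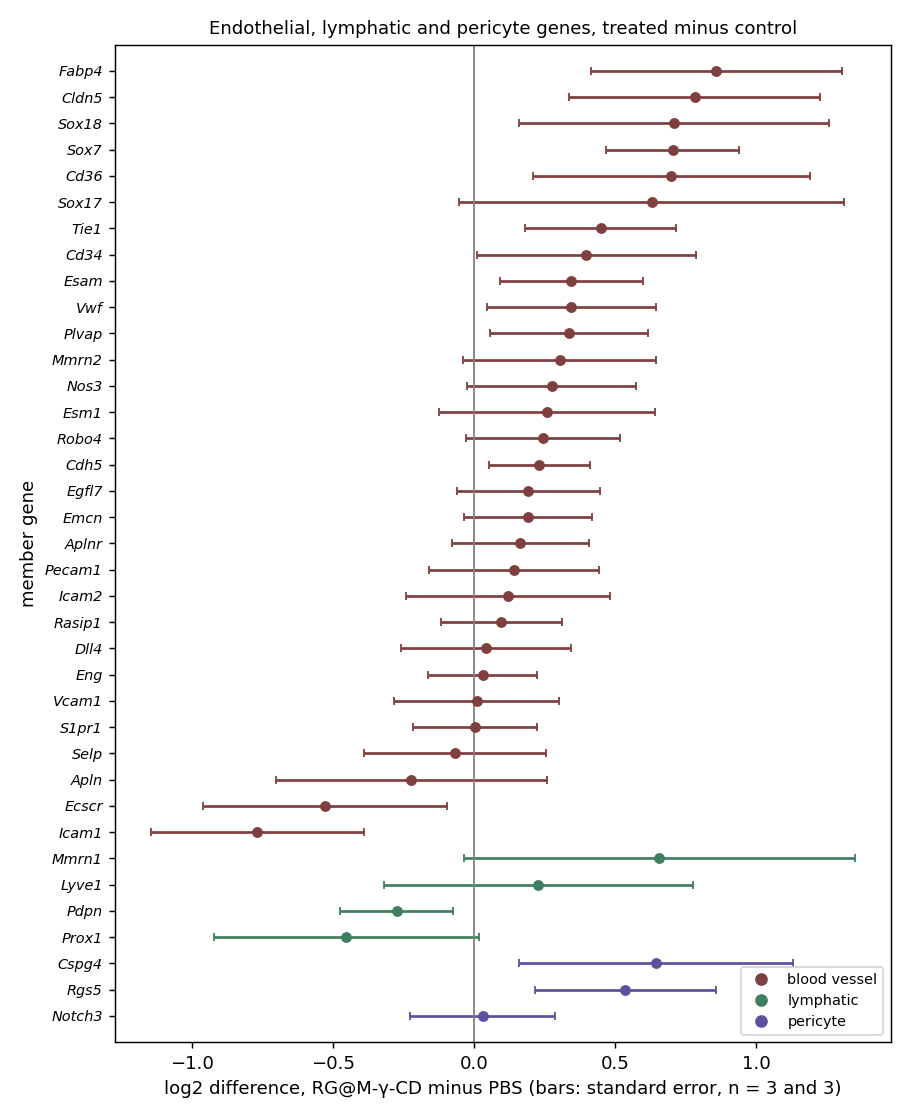
Log2 difference (RG@M-γ-CD minus PBS, horizontal axis) of the 37 tested genes, one per row, with the standard error as a bar (n = 3 and 3) and color for the class. The points run from -0.77 for Icam1 to 0.86 for Fabp4, and 26 of 30 blood vessel genes lie right of 0.

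Among the 30 blood vessel genes tested, 26 had a higher mean in the RG@M-γ-CD group, and the 4 lower ones were Ecscr, Apln, Selp and Icam1. The median difference of the class was 0.24. It stayed positive when each array was left out in turn, between 0.055 without PBS replicate 3 and 0.39 without PBS replicate 2, and was 0.28 without the first replicates of both groups. With the slide row as a block, the difference is that of the treated arrays against PBS replicate 1 alone, the only control array in the first row. In this setting 22 of 30 were higher. The median over the 37 tested vascular genes was 0.23, beside 0.097 over all genes.

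The arrays did not follow the treatment groups. After each gene was centered on its mean over the 6 arrays, the median of the 30 blood vessel genes was 0.04, 0.35 and -0.06 on RG@M-γ-CD replicates 1, 2 and 3 and -0.11, 0.17 and -0.52 on PBS replicates 1, 2 and 3. RG@M-γ-CD replicate 2 held the highest value of 16 genes, and PBS replicate 3 the lowest value of 22. PBS replicate 2 lay above the gene's mean for 24 of the 30 genes, more than any of the treated arrays. The 28 other endothelial genes, a list that shares no gene with the 33, ran alike, with medians of -0.08, 0.41 and -0.0046 on the treated and -0.15, 0.16 and -0.45 on the control arrays.

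**Figure D2:**
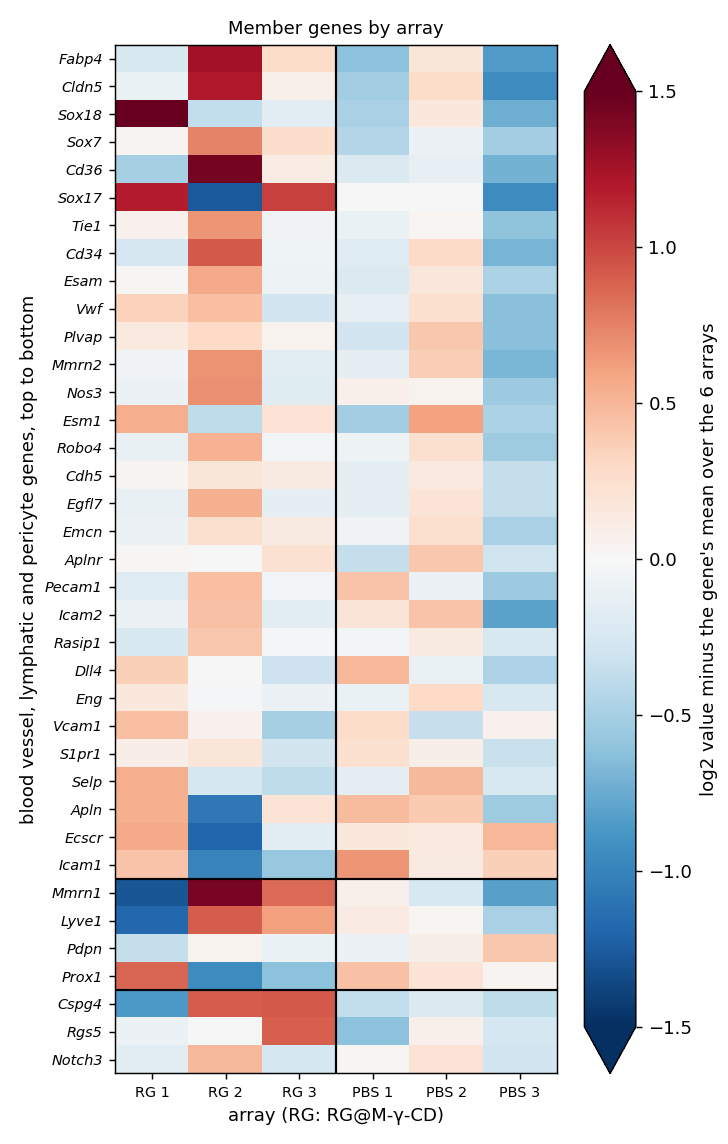
Each row is a gene, each column an array (RG stands for RG@M-γ-CD), and color gives the log2 value minus the gene's mean over the 6 arrays, from blue (low) through white to red (high), with horizontal lines between the classes. Most blood vessel genes are red on RG@M-γ-CD replicate 2 and blue on PBS replicate 3, while Sox17, Apln, Ecscr and Icam1 are blue on RG@M-γ-CD replicate 2.

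Junction genes set the barrier between blood and tissue. All 6 tested were higher in the treated group, by 0.10 to 0.78. Cdh5, which encodes VE-cadherin, read 0.36, 0.50 and 0.46 on the RG@M-γ-CD arrays and 0.19, 0.47 and -0.03 on the PBS arrays. Its groups overlapped only through PBS replicate 2, and the difference was 0.23 ± 0.18 (SE). Pecam1, the adhesion protein CD31 that is the usual stain for vessels, read -2.37, -1.73 and -2.22 on the RG@M-γ-CD arrays against -1.75, -2.27 and -2.73 on the PBS arrays. The highest and next highest values of Pecam1 came from different groups, and its difference of 0.14 ± 0.30 turned to -0.35 with the slide row as a block. Cldn5, the tight junction protein of capillaries, read -0.30, 1.0 and -0.12 against -0.72, 0.09 and -1.12. It had the widest difference of the junction genes, 0.78 ± 0.45, but PBS replicate 2 lay above 2 treated arrays, and the difference was 0.38 without RG@M-γ-CD replicate 2. Esam, Icam2 and Rasip1, which hold or organize the same contacts, differed by 0.34, 0.12 and 0.10.

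Cell surface and matrix genes of mature endothelium behaved in the same way. Cd34, a sialomucin of capillaries and of some stromal cells, read 2.55, 3.72 and 2.74 on the RG@M-γ-CD arrays and 2.61, 3.09 and 2.11 on the PBS arrays. Plvap, the diaphragm protein of fenestrated capillaries such as those of the gut, read 2.67, 2.83 and 2.58 against 2.24, 2.94 and 1.90. Vwf, the clotting factor that endothelium stores, read 2.81, 2.92 and 2.19 against 2.34, 2.71 and 1.84. In each of these 3 genes the highest array was replicate 2 of one group or the other and the lowest was PBS replicate 3. Their differences were 0.40 ± 0.39 for Cd34, 0.33 ± 0.28 for Plvap and 0.34 ± 0.30 for Vwf. Without RG@M-γ-CD replicate 2 the difference of Cd34 was 0.038, and without PBS replicate 3 those of Plvap and Vwf were 0.11 and 0.11. Emcn, Egfl7 and Mmrn2, a sialomucin, a secreted vessel factor and a matrix protein, differed by 0.19 to 0.30, and Nos3, the endothelial nitric oxide synthase, by 0.28.

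Ecscr, a surface protein of endothelial cells, had a lower mean in the treated group. It read 3.72, 1.96 and 2.98 on the RG@M-γ-CD arrays and 3.31, 3.29 and 3.65 on the PBS arrays, so that the array with the highest values of most vessel genes had its lowest. The difference was -0.53 ± 0.43, and the gene's second probe differed by -0.59 with the same array lowest. The difference was -0.065 without that array, RG@M-γ-CD replicate 2, and -0.94 without RG@M-γ-CD replicate 1.

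Receptors of vessel cells differed little. Tie1, the partner of the angiopoietin receptor, had the widest difference at 0.45 ± 0.27. Robo4 and Aplnr, which take part in vessel stability and in apelin signaling, were higher by 0.24 and 0.16. Eng, a co-receptor for BMP9, and S1pr1, a receptor for sphingosine 1-phosphate, differed by 0.03 and 0.0031. Tek, which encodes the angiopoietin receptor TIE2 and belongs to the list of other endothelial genes, read -2.56, -1.91 and -2.32 against -2.99, -2.66 and -3.29. Its groups did not overlap, and it was the only one of the 28 genes in that list with an unadjusted p below 0.05 in limma. The shares over all genes were 4.57% and 2.19%. The difference of Tek was 0.72 ± 0.25. Of the 28 genes, 21 were higher, with a median of 0.26. The adjusted p of Tek was 1.0.

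The genes of sprouting tips, which VEGF induces, showed no shared direction. Esm1 read 0.94, 0.01 and 0.61 on the RG@M-γ-CD arrays and -0.12, 0.99 and -0.08 on the PBS arrays. Apln, the ligand of Aplnr, read -1.0, -2.60 and -1.33 against -1.06, -1.14 and -2.06. Dll4, the Notch ligand of tip cells, read -1.73, -2.08 and -2.40 against -1.59, -2.19 and -2.55. In all 3 the groups lay across each other. The differences were 0.26 ± 0.38 for Esm1, -0.22 ± 0.48 for Apln and 0.04 ± 0.30 for Dll4, and none kept its sign under all the alternatives tried: Esm1 was -0.14 without both first replicates, Apln 0.26 without RG@M-γ-CD replicate 2 and Dll4 -0.48 with the slide row as a block.

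The SOX F factors SOX7, SOX17 and SOX18 and the ETS factor ERG drive transcription in endothelium. Sox7 read -2.50, -1.80 and -2.28 on the RG@M-γ-CD arrays and -2.99, -2.64 and -3.06 on the PBS arrays. All treated arrays lay above all control arrays, with a gap between RG@M-γ-CD replicate 1 and PBS replicate 2. The difference was 0.70 ± 0.23, or 1.63-fold, with an unadjusted p of 0.022 and an adjusted p of 1.0 in limma. It lay between 0.51 and 0.86 when each array was left out in turn, and was 0.35 with another background correction (normexp), under which the groups overlapped. The gene is dim on these arrays and has 1 probe.

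Sox17 read 2.60, 0.16 and 2.45 on the RG@M-γ-CD arrays and 1.43, 1.41 and 0.48 on the PBS arrays. Replicates 1 and 3 of the treated group were the highest of the 6 arrays and replicate 2 was the lowest, so the difference of 0.63 ± 0.68 was smaller than its error. A second tested probe differed by 0.86 with the same treated arrays high. Sox18 read 1.76, -0.21 and 0.01 against -0.32, 0.32 and -0.56, and its difference of 0.71 ± 0.55 came from RG@M-γ-CD replicate 1, since it was 0.087 without that array. The 3 factors thus had similar differences from different arrays. Erg was well above background on 1 of 3 treated and 2 of 3 control arrays and was not tested. Its probe read -4.74, -3.61 and -4.49 against -4.45, -3.95 and -5.17.

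Promoter sequence was available in the RefSeq table (GRCm38.p6) for 23 of the 40 genes, in 28 windows from 250 bases before to 50 after a transcript start. These were searched on both strands for CAGGAAG and CCGGAAG, cores of ETS sites, and for AACAAT, a core of SOX sites. CAGGAAG occurred in the windows of 8 of the 23 genes (34.8%), which were Apln, Cd34, Egfl7, Emcn, Erg, Rasip1, Robo4 and Sele, against 14.8% of 27025 genes in the table. CCGGAAG occurred in 0 of 23, against 9.93%, and AACAAT in 4 (Cd36, Emcn, Erg and Mmrn1), or 17.4% against 12.2%. Matches are descriptions of letters and not of bound sites. The following stretches upstream of the start are shown as examples from the vessel genes with a CAGGAAG match. Each is written 5′ to 3′ on the strand of the gene (all plus), with the matches in capitals. CTTCCTG is CAGGAAG read from the other strand.
Cd34, chr1:194938661-194938720: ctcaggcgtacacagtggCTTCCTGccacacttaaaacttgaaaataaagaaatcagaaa
Egfl7, chr2:26580983-26581052: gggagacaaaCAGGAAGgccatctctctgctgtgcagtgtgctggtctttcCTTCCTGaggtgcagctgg
Emcn, chr3:137340898-137341047: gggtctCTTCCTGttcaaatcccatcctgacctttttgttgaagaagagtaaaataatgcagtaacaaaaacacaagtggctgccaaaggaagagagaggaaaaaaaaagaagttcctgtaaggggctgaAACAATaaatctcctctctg
Rasip1, chr7:45627427-45627486: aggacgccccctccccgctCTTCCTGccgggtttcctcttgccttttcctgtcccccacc

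In the stretch of Egfl7 the CAGGAAG matches lay 90 and 49 bases before the start, on opposite strands. A further match, not shown, lay 81 bases before another start of Egfl7. In Emcn the ETS and SOX matches lay 174 and 50 bases before the start. Cd34, Egfl7, Emcn and Rasip1 were highest on replicate 2 of the treated or the control group, but so were vessel genes without a match in their window, such as Cldn5 and Tie1. Among the other tested genes with a CAGGAAG match, Robo4 was highest on RG@M-γ-CD replicate 2 and Apln was lowest on it.

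Of the adhesion molecules that capture leukocytes, 3 were tested, and 1 had a higher and 2 a lower mean in the treated group. Icam1, the ligand of leukocyte integrins, which epithelium and leukocytes also make, read 2.49, 1.07 and 1.49 on the RG@M-γ-CD arrays and 2.73, 2.20 and 2.42 on the PBS arrays. Treated replicates 2 and 3 lay below all control arrays, while treated replicate 1 lay among them. The difference was -0.77 ± 0.38, the lowest of the 37 genes, with an unadjusted p of 0.085 in limma, and it ran from -1.17 to -0.46 when each array was left out. A dimmer second probe, well above background on 2 of 3 treated arrays and on all control arrays, differed by -0.84. Along with Icam1, all 8 leukocyte genes tested had lower means in the treated group, with a median of -0.62, and 7 of 8 macrophage genes did, with a median of -0.44. The summed level of the leukocyte list ran from 14.4 to 25.7 in the RG@M-γ-CD group and from 20.2 to 39.8 in the PBS group, and its part in the values of Icam1 was not tested. Of 4 platelet genes, Gp1bb and Itgb3 differed by 0.21 and 0.22. The groups did not overlap in Pf4 (-0.48 ± 0.17) and Ppbp (-2.14 ± 0.89), beside 4.57% of all genes. Ppbp was well above background on 2 of 3 treated arrays, so it was tested only through the control group, where it was higher. The summed level of the 4 genes was 4.85 to 5.86 in the treated and 5.74 to 6.28 in the control group. All 3 erythrocyte genes tested had a higher mean, with a summed level of 15.2 to 36.9 against 10.9 to 36.3.

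Vcam1, the ligand of VLA-4, read 0.92, 0.53 and -0.03 on the RG@M-γ-CD arrays and 0.74, 0.12 and 0.53 on the PBS arrays, a difference of 0.01 ± 0.29. Selp, the P-selectin of endothelium and platelets, read -1.31, -2.11 and -2.23 against -2.00, -1.36 and -2.10, a difference of -0.07 ± 0.32. Neither gene showed an order by group. A second tested probe of Selp, well above background on 2 of 3 treated arrays and on all control arrays, differed by 0.17. Sele, the E-selectin induced by cytokines, was well above background only on PBS replicate 3, where its probe read -4.06, beside -6.80 and -6.31 on the other control arrays and -6.40, -6.48 and -6.55 on the treated arrays. Madcam1, the addressin of gut venules, was well above background on 1 array of each group, and its probe read -4.40, -4.22 and -5.02 against -4.64, -3.83 and -4.96. Both were left out of the tests for this reason.

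**Figure D3:**
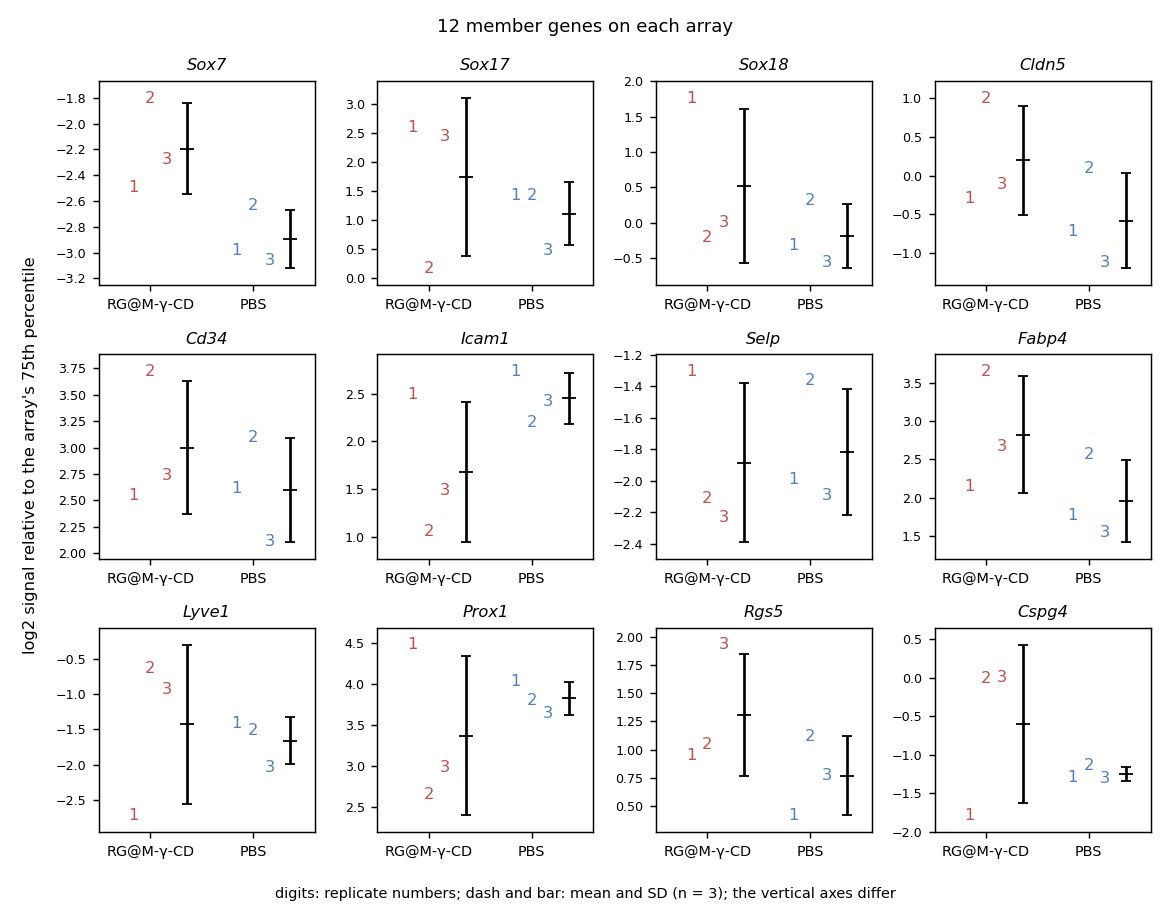
Log2 signal relative to the 75th percentile of the array (vertical axes, which differ between panels) for 12 genes, with the replicate number as the mark and the mean and SD of each group beside it (n = 3). Sox7 is the only panel in which all treated values lie above all control values, and replicate 1 of the treated group is set off from replicates 2 and 3 in Sox18, Icam1, Lyve1, Prox1 and Cspg4.

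Fabp4 and Cd36 handle fatty acids in capillary endothelium and also in adipocytes and macrophages. Fabp4 read 2.15, 3.65 and 2.67 on the RG@M-γ-CD arrays and 1.77, 2.57 and 1.55 on the PBS arrays. Only PBS replicate 2 reached into the treated range, above replicate 1. The difference was 0.86 ± 0.44, the highest of the 37 genes over all arrays, with an unadjusted p of 0.098 in limma, and 0.88 on the second probe. Leaving out RG@M-γ-CD replicate 2 lowered it to 0.45, below Sox17 at 1.42. Cd36 read -3.71, -1.78 and -3.11 against -3.43, -3.34 and -3.93, a difference of 0.70 ± 0.49 that came from RG@M-γ-CD replicate 2, being 0.15 without it. Adipocyte genes were measured beside them. Of 6 tested, 5 were higher. The summed level of the 6 was 3.28, 24.7 and 13.98 on the treated arrays and 5.25, 10.4 and 5.59 on the control arrays. Pck1, the brightest of the 6, was the largest part of this sum on each array, and its difference was 0.34 ± 0.97. After each gene was centered, the median of the 6 was -0.84, 0.88 and 0.44 on the treated and -0.52, -0.0035 and -0.30 on the control arrays. Adipoq, Plin1, Retn and Cfd, of the same list, did not pass the filter on dim probes. Among those tested, Cidec had groups that did not overlap, beside 4.57% of all genes, with a difference of 0.96 ± 0.40. Plin4 differed by 1.29 ± 0.82. The part of adipocytes in the values of Fabp4 and Cd36 was not tested.

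The 4 lymphatic genes did not share a direction. Lyve1, the hyaluronan receptor of lymphatic capillaries and of some macrophages, read -2.72, -0.64 and -0.93 on the RG@M-γ-CD arrays and -1.42, -1.52 and -2.03 on the PBS arrays. Mmrn1, a secreted protein of lymphatic endothelium and platelets, read -2.09, 0.62 and 0.04 against -0.73, -1.05 and -1.62. In both genes treated replicates 2 and 3 were the highest of all arrays and treated replicate 1 the lowest. The differences were 0.23 ± 0.55 and 0.66 ± 0.69. They were -0.17 and 0.11 without RG@M-γ-CD replicate 2, and 0.87 and 1.46 without RG@M-γ-CD replicate 1.

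Prox1 showed the reverse order. It read 4.48, 2.66 and 2.99 on the RG@M-γ-CD arrays and 4.04, 3.80 and 3.64 on the PBS arrays, with treated replicate 1 the highest and replicates 2 and 3 the lowest. The difference was -0.45 ± 0.47, and -0.43 on the second probe, and it was -0.095 without RG@M-γ-CD replicate 2. PROX1 is also made by intestinal tumor cells and enteroendocrine cells. Pdpn, or podoplanin, which fibroblasts and macrophages also carry, read 1.53, 1.94 and 1.80 against 1.81, 1.98 and 2.30, a difference of -0.27 ± 0.20. The median over the 4 genes was -0.023 with all arrays, 0.0031 after quantile normalization, 0.0035 in the deposited table and 0.35 without RG@M-γ-CD replicate 1. Of the 12 other lymphatic genes 9 were tested, 6 of these 9 were higher, and their median was 0.12. Among them Reln and Itga9 differed by 0.80 ± 0.80 and 0.41 ± 0.28.

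All 3 pericyte genes had a higher mean in the treated group, with a median difference of 0.54. Rgs5, a regulator of G protein signaling that marks pericytes, read 0.95, 1.04 and 1.93 on the RG@M-γ-CD arrays and 0.42, 1.12 and 0.77 on the PBS arrays. Only PBS replicate 2 lay within the treated range, and the difference was 0.54 ± 0.32, and 0.22 without RG@M-γ-CD replicate 3. Cspg4, the NG2 proteoglycan, read -1.78, -0.02 and -0.0021 against -1.29, -1.14 and -1.30. Its control arrays lay close together, with an SD of 0.09, below treated replicates 2 and 3 and above treated replicate 1. The difference was 0.64 ± 0.49, and 0.34 without RG@M-γ-CD replicate 3. Notch3, the Notch receptor of mural cells, read 0.66, 1.31 and 0.57 against 0.85, 1.05 and 0.54, a difference of 0.03 ± 0.26.

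Of the 12 other pericyte genes, 8 were higher, with a median of 0.11. Kcnj8, a potassium channel subunit of pericytes, read 1.78, 2.07 and 2.88 against 1.40, 1.65 and 1.78, with a difference of 0.63 ± 0.30, and its lowest treated and highest control array were equal to 2 decimals. Abcc9 and Des, of which Des is also in the smooth muscle list, differed by 0.89 ± 0.63 and 0.95 ± 0.83. Smooth muscle genes, which include those of the gut wall, varied along with Cspg4. All 9 tested had a higher mean in the treated group with a median of 0.95, none with an unadjusted p below 0.05 in limma, and their summed level was 110, 698 and 841 on the treated arrays and 240, 206 and 231 on the control arrays. Smooth muscle level and Cspg4 were thus both lowest on treated replicate 1 and highest on treated replicates 2 and 3. Its part in the pericyte values was not tested.

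**Figure D4:**
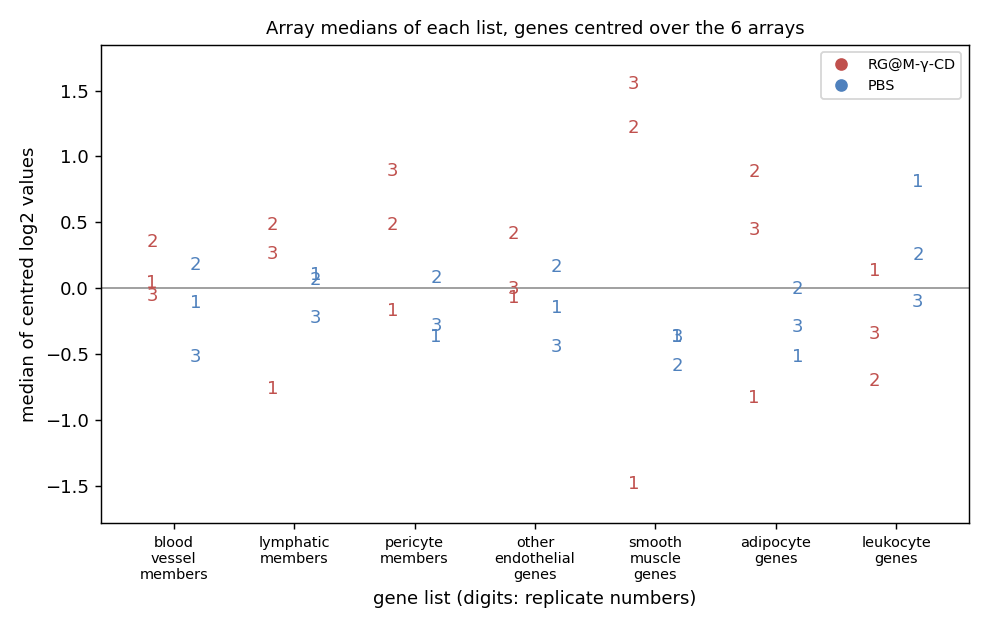
Median over each gene list of the log2 values centered on each gene's mean (vertical axis), by list (horizontal axis), with the replicate number as the mark and color for the group. Treated replicates 2 and 3 lie above and treated replicate 1 below all control arrays for the smooth muscle genes (1.22, 1.55 and -1.48). The lymphatic and adipocyte genes share this order, and the blood vessel genes do not.

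The counts depended on RG@M-γ-CD replicate 1. Without it, 9 of the 37 genes had an unadjusted p below 0.05 in limma, 6 higher and 3 lower, beside 12.5% of all genes tested, and the groups did not overlap in 10, beside 25.9% of all genes. One gene, Cspg4, passed an adjusted p of 0.05 (difference 1.24, adjusted p = 0.038), beside 1.04% of all genes. The 9 were Cspg4, Mmrn1, Lyve1, Sox7, Fabp4 and Cd36, which were higher, and Icam1, Prox1 and Ecscr, which were lower. Without PBS replicate 1 as well, 6 of 37 had an unadjusted p below 0.05 (12.3% of all genes), the groups did not overlap in 12 (49.3% of all genes), and no gene passed the adjusted threshold. Cspg4 was then 1.21 higher, with an adjusted p of 0.099 in limma. With the arrays set side by side as in the clustered heat map, RG@M-γ-CD replicates 2 and 3 and PBS replicate 1 exceeded the other arrays by 1.56 for Mmrn1, 1.09 for Lyve1 and 0.97 for Cspg4 and lay below them by a difference of -0.75 for Prox1. These are values without a test, because the heat map was clustered on the same arrays.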

How the data were processed

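Total RNA of colon tissue with tumors (6 samples) was hybridized in 1 color (Cy3) to Agilent mouse gene expression arrays. Per the file headers, the deposited intensity of each spot came from Agilent Feature Extraction 10.7.1.1, background-corrected and not normalized between arrays. The authors also deposited a table of log2 values per probe, whose columns correlate with their own array at 0.9991 or above and have the same median of 4.83. The values were used as an alternative. The table's normalization method is not given in the sources used here. Its differences were nearly those after quantile normalization, such as 0.7235 against 0.7229 for Sox7 and 0.4218 against 0.4212 for Cd34. The 2 alternatives are therefore not separate checks.

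The 3671 control spots and 790 gene spots marked as outliers on the 6 arrays were left out, repeat spots were averaged as log2 values, and each array was scaled by subtracting its 75th percentile over gene probes. A probe counted as well above background if a share of 0.5 or more of its spots carried that mark. Symbols came through the accession from RefSeq for 58.29% of gene probes and otherwise from the file. For the 57 probes of the 40 genes, 47 matched that way and 0 gave another symbol. Differences over 19090 genes were estimated in limma 3.58.1 by lmFit and eBayes, run in R 4.3.3 with the data.table package (version 1.17.8) and adjusted by Benjamini-Hochberg, with a threshold of 0.05. By the study's methods the arrays of a group are independent mice, so p-values measure the spread between mice. The 40 genes and all lists were chosen with earlier results of these data known. Values for each array are given for genes with an unadjusted p below 0.05 or groups that do not overlap and for a fixed list of 23 genes. Sox18, Cldn5, Mmrn1 and Ecscr were added after their values were seen, and Tek, Kcnj8 and others of the wider lists are among the 4 with the lowest p in their list.

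Alternatives were quantile normalization, normexp, the deposited table, other filters, probe and outlier rules, the replicate block, the slide row, the methods' unpaired test and leaving arrays out.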

Additional observations from a re-analysis of the deposited data

How the results depend on the processing

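Quantile normalization, the deposited table, a stricter filter on dim probes and keeping outlier spots changed no call, and no direction other than that of the lymphatic median, which went from -0.023 to 0.0031 and 0.0035 under quantile normalization and the deposited table. Over all genes tested, the replicate numbers did not pair the arrays, since the deviations of same-numbered arrays correlated at -0.25, -0.233 and 0.136. The medians of the blood vessel genes had the same order in both groups, highest on replicate 2 and lowest on replicate 3. With the replicate block, 4 of the 37 genes had an unadjusted p below 0.05 (Cldn5, Fabp4, Icam1 and Sox7), beside 2.43% of all genes, and none passed the adjusted threshold. With the slide row as a block, the difference equals that within the first row, where PBS replicate 1 is the only control array. Under normexp the counts of the 37 genes with an unadjusted p below 0.05 and of those without overlap were 0 and 0. The shares over all genes were then 1.69% and 4.61%. Without a filter on dim probes, 779 of 37321 genes (2.09%) had an unadjusted p below 0.05, 1 of the 40 vascular genes among them. Without the first replicates of both groups, 2407 genes (12.3%), 6 of the 37 among them, had one. Of the 37, 12 did not overlap, beside 49.3% of all genes. With the arrays set as in the heat map, 3 did not overlap (Lyve1, Mmrn1 and Pecam1), beside 24.8% of all genes, and the lymphatic median was 0.50.

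Leaving out 1 array at a time gave 0 to 202 genes at the adjusted threshold (202 without RG@M-γ-CD replicate 1), 241 to 2428 at the unadjusted, 0 to 9 of the vascular genes at the unadjusted, 0 to 1 at the adjusted and 1 to 12 without overlap (12 without PBS replicate 2, all higher, beside 11.5% of all genes). The medians ran from 0.055 to 0.39 for blood vessel, -0.14 to 0.35 for lymphatic and 0.22 to 0.72 for pericyte genes.

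Differences near 0 changed sign. With the slide row as a block they were -0.35 for Pecam1, -0.14 for Icam2, -0.24 for S1pr1, -0.48 for Dll4, 0.11 for Selp, -0.27 for Vcam1, -0.0069 for Lyve1 and -0.0076 for Notch3. Dll4 was -0.0074 under normexp and Selp 0.053 as the mean of its probes. Without both first replicates, Eng was -0.083, Esm1 -0.14 and Vcam1 -0.075. Over the leave-one-out fits Pecam1 ran from -0.098 to 0.39, Icam2 from -0.25 to 0.37, Rasip1 from -0.079 to 0.23, Eng from -0.083 to 0.19, S1pr1 from -0.16 to 0.14, Apln from -0.54 to 0.26, Dll4 from -0.18 to 0.30, Emcn from -0.0011 to 0.36, Egfl7 from -0.028 to 0.34, Selp from -0.36 to 0.16, Vcam1 from -0.21 to 0.26, Lyve1 from -0.17 to 0.87 and Notch3 from -0.20 to 0.17. The cause was not tested.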
